A study of Mus musculus with 5 samples.

Results

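The intervals described here lie in or near the genes of 10 basic leucine zipper (bZIP) proteins: Batf, Batf3, Atf3, Jun, Junb, Jund, Fos, Fosb, Fosl2 and Mafk. A deposited ChIP-seq interval was taken when its centre lay in the body of one of these genes or within 50 kb of it, in GENCODE M1 annotation of the mm9 mouse genome. These are 10 of the 22380 protein-coding genes of that annotation, and 16 of the 5590 intervals of the 5 deposited lists met the rule. The 16 intervals fell at 11 distinct places, and 9 of the 10 genes had at least 1 interval. Fosl2 had none in any list, as had 71.9% of all protein-coding genes.

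The lists came from wild-type C57BL/6 mice. Naive B cells from the spleen were cultured with 10 µg/ml lipopolysaccharide (LPS, a bacterial cell wall component that activates B cells) for 48 h or 72 h, and chromatin was precipitated with the anti-IRF4 antibody M-17 or the anti-IRF8 antibody C-19. Germinal centre (GC) B cells, the dividing cells in which antibody genes mutate, were sorted 13 days after immunisation with NP-KLH, a hapten coupled to a carrier protein and precipitated with the IRF8 antibody; per the series' design text, a company did this on cells that had been frozen. There was 1 library in each of the 5 groups, so no value below has a replicate check, and whether animals were pooled is not given in the sources used here. Peak lists hold no expression values, so the labelled cell types were not checked against marker genes, and whether any of the 10 genes was transcribed was not measured.

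AP-1 is a family of dimers of bZIP proteins, chiefly a JUN protein paired with a FOS, ATF or BATF protein, that bind a short palindrome in DNA. IRF4 and IRF8 bind DNA weakly by themselves and are known to bind with partners: with the ETS proteins PU.1 or SPIB at composite ETS-IRF elements, and with BATF and JUN proteins at composite AP-1-IRF elements. In B cells BATF is known for its part in class switching of antibody genes. The genes below encode such partners and related bZIP proteins.

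The sequences in which the results turn on letters are given first, on the forward strand of mm9. Capitals mark a match to one of these elements: AP-1 (TGACTCA or TGAGTCA), the composite ETS-IRF element (EICE, GGAANNGAAA, N being any base), and the ISRE core of interferon-stimulated genes (GAAANNGAAA). Both strands were searched, so capitals can read as the reverse complement. The first sequence is shown because all 5 lists had an interval over it, 14.7 kb upstream of Atf3 (chr1:193021899-193022028). The second holds the only other element found within 100 bp of an interval centre, downstream of Junb (chr8:87498824-87498953). The next 2 are the bases within 100 bp of the centres of the IRF4 48 h peaks beyond the ends of Batf (chr12:87051737-87051937) and Batf3 (chr1:192938825-192939025), shown because no element was found in them. The last is the place upstream of Jdp2 (chr12:86934012-86934212), a gene between Fos and Batf that is no member of the 10. The Batf, Batf3 and Jdp2 places were picked for printing after their values were seen.
Atf3 place: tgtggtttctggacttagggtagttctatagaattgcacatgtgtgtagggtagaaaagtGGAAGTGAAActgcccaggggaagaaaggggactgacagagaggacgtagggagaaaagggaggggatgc
Junb downstream place: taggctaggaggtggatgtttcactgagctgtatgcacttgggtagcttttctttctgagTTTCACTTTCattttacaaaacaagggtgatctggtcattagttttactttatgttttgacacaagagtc
Batf place: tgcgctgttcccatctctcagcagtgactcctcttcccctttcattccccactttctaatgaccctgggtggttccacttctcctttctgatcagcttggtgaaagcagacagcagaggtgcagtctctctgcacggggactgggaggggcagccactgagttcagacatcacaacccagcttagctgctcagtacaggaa
Batf3 place: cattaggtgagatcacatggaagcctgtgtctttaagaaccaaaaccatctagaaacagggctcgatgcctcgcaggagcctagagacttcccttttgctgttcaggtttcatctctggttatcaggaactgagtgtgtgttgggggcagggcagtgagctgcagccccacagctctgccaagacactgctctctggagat
Jdp2 place: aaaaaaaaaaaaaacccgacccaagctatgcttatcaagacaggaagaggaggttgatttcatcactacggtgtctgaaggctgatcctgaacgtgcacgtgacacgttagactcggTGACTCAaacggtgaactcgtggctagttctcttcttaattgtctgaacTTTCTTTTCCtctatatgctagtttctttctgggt

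The lists differed in length and depth. The LPS libraries held 3065426 to 4375858 tags (sequenced fragments), of which 0.18% to 0.82% fell in the 234 to 1573 peaks of a list. In these lists a peak is given by its normalised tag count, the number of its tags per 10000000 tags of the library, as the authors scaled it. The tag threshold of the caller was low: it was 9 to 11 tags, and 54.0% to 77.0% of the peaks of a list lay within 3 tags of it. The GC list of 1826 intervals gives positions alone, so its depth and signal are unknown, and it was called with another program on wider intervals. Cell type, caller and processing therefore cannot be told apart wherever the GC list is set against an LPS list.

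Around the 10 genes, the lists split by gene. Batf and Batf3 had intervals in IRF4 lists of LPS cultures and in no IRF8 list, Atf3 in each of the 5 lists, and Jun, Junb, Jund, Fosb and Mafk in the GC list alone. Fos had 1 interval in the IRF8 48 h list and another, at a different place, in the GC list. By list, 3 of 10 genes had an interval in the IRF4 48 h list against 11.5% of all protein-coding genes, 2 in the IRF4 72 h list against 7.61%, 2 in the IRF8 48 h list against 1.99% and 1 in the IRF8 72 h list against 8.81%. In the GC list it was 7 of 10 genes against 15.6% of all genes. The IRF8 72 h count is near the share of all genes, and the other counts lie above it. The LPS counts are of 1 to 3 genes each, and none of the counts was tested. The GC count includes Jund through an interval near a Pde4c start and Fosb through an interval in a Vasp intron. The GC count was 4 (Atf3, Jun, Junb and Mafk) with a window of 20 kb, and with a minimum of 30 normalised tags the LPS lists kept only the 3 genes of the IRF4 48 h list. The split by factor rests on the window: at 100 kb the IRF8 72 h list counted for Batf and Batf3 as well as Atf3, through the Jdp2 and Atf3 places, and Batf3 was also counted in the IRF8 48 h and GC lists. With each LPS list at the length of the shortest, the IRF4 lists held 0 of the 10 genes and the IRF8 48 h list kept Atf3 and Fos. The window searched was no wider around these genes than around others: its median width was 108.9 kb, with a median of 2 other protein-coding genes in it, against 115.4 kb and 3 for all genes.

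**Figure D1:**
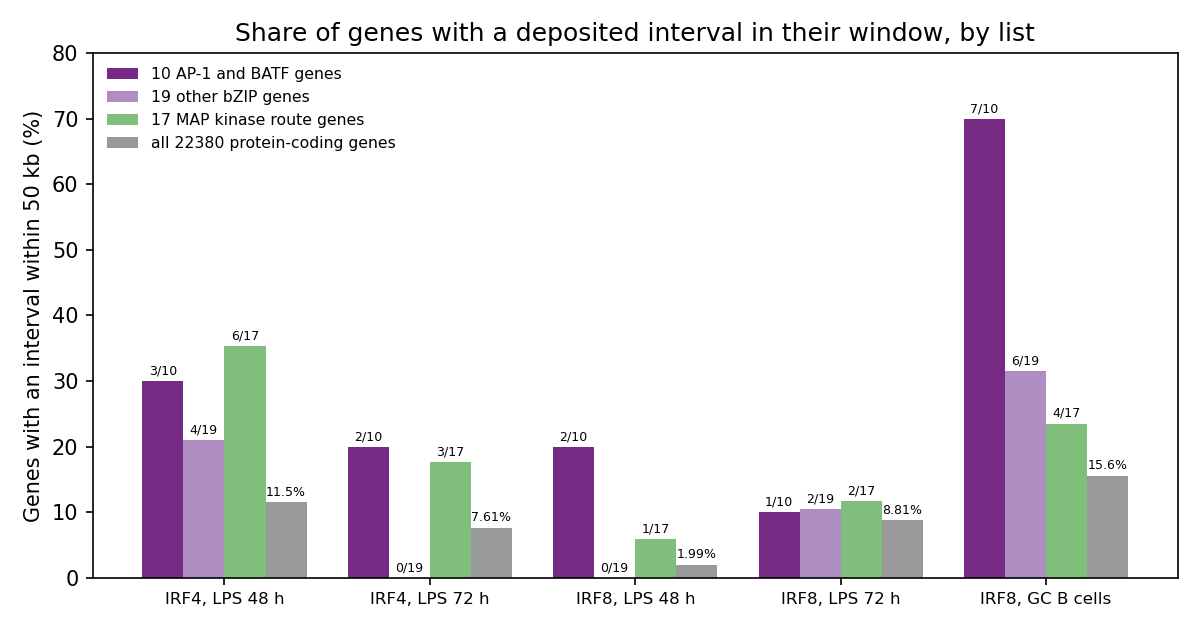
Share of genes with a deposited interval in the gene body or within 50 kb (y axis, percent) in each of the 5 lists (x axis). Bars stand for the 10 AP-1 and BATF family genes, 19 other bZIP genes, 17 genes of the MAP kinase route and all 22380 protein-coding genes, with the counts above the bars, and the tallest bar is the 7 of 10 genes in the GC list.

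Of all genes, 0.393% had an interval in each of the 5 lists, as Atf3 had, and 1.54% had one in both IRF4 lists and in no IRF8 list, as Batf had. The GC list without any LPS list was the pattern of 8.9% of all genes and of 5 of the 10. No interval at all, the case of Fosl2, was the commonest pattern genome-wide, at 71.9% of genes. All 16 intervals were single-copy by the rule used: the median word of 24 bases within 100 bp of the centre occurred 1 time in the genome. Bases farther from the centre were not counted. The position of an interval in a window does not name the gene it acts on: the window of Junb held 8 other protein-coding genes, that of Fosb 7, that of Jund 4, and those of Jun and Fos none.

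**Figure D2:**
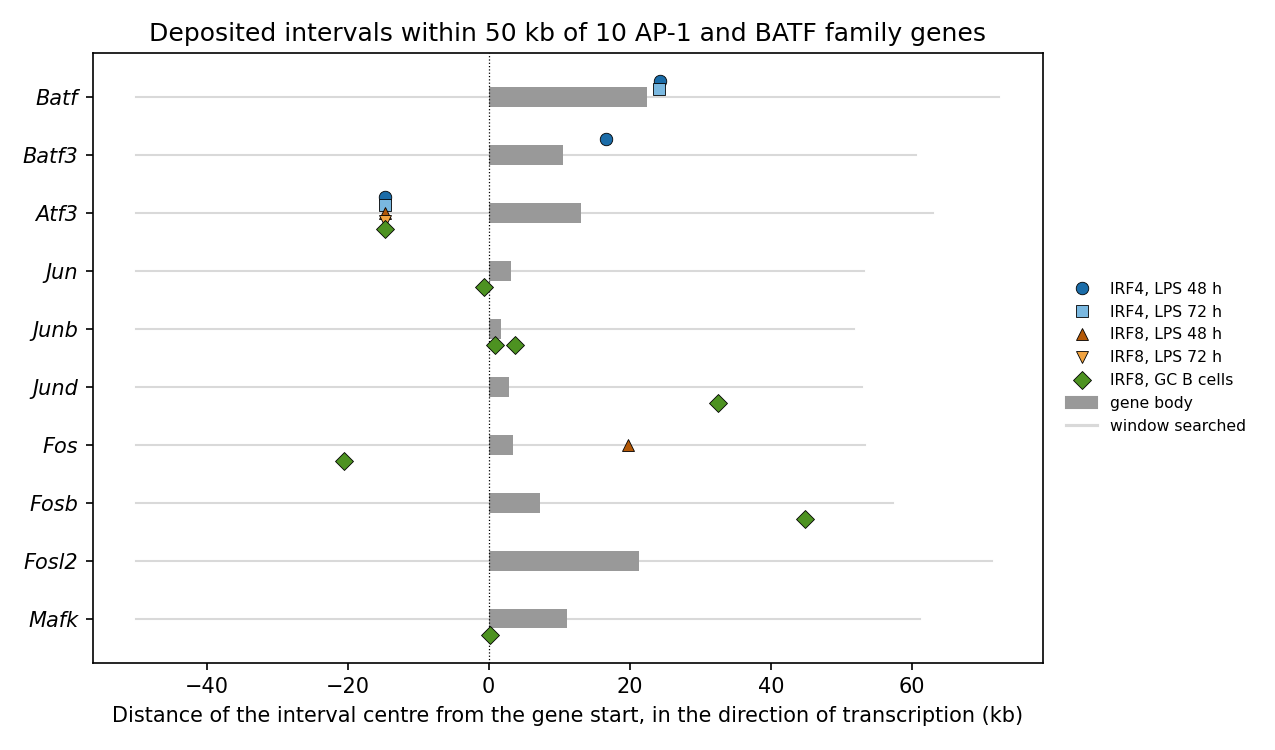
Distance of each interval centre from the start of the gene in the direction of transcription (x axis, kb) for the 10 genes (y axis). Symbols mark the list, grey boxes the gene bodies and pale lines the windows searched; the symbols of all 5 lists sit together upstream of Atf3, while those at Jun, Junb, Jund, Fosb and Mafk are all of the GC list.

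Batf encodes the BATF protein, which lacks a domain to activate transcription and pairs with JUN proteins. The gene lies on chromosome 12, 87027619 to 87050037, on the forward strand. A peak lay just past its end in both IRF4 lists, intergenic and 24.2 kb from the gene start. At 48 h it ran from 87051587 to 87052087 and carried 38.3 normalised tags (13 tags, 95% Poisson interval 20.4 to 65.4). At 72 h it ran from 87051557 to 87052057 and carried 29.2 (11 tags, 14.6 to 52.3). Each value equalled the median of its own list, so by its count this was an average peak in each IRF4 list. It ranked 653 of 1573 at 48 h and 445 of 898 at 72 h. It stood 12.35 and 9.5 times above the surrounding 10000 bp by the authors' fold. The tags exceeded the threshold of 10 by 3 at 48 h and by 1 at 72 h. No IRF8 list held a peak in the Batf window, and tags below a threshold are not in the lists, so a level of IRF8 there was not measured.

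Batf3 encodes a related protein known for its part in dendritic cell development, and Atf3 a bZIP protein of the stress response that can act as a repressor. They are neighbours on chromosome 1, Batf3 at 192922293 to 192932822 on the forward strand and Atf3 at 192994175 to 193007219 on the reverse strand. Near Batf3 the IRF4 48 h list alone held a peak, at 192938675 to 192939175, 6.10 kb past the gene end and intergenic. It carried 38.3 normalised tags (13 tags, 20.4 to 65.4), the same value as the Batf peak of that list, and stood 17.64 times above its surroundings. This peak lies 55.2 kb from Atf3 and is the nearest interval just outside the window of any of the 10 genes. The farthest interval inside a window was that of Fosb, at 37.5 kb.

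Upstream of Atf3 all 5 lists had an interval at the same place. The IRF4 peaks were at 193021685 to 193022185 with 32.4 normalised tags at 48 h (11 tags, 16.2 to 57.9) and at 193021637 to 193022137 with 26.6 at 72 h (10 tags, 12.7 to 48.8). The IRF8 peaks were at 193021709 to 193022209 with 22.9 at 48 h (10 tags, 11.0 to 42.0) and at 193021715 to 193022215 with 29.4 at 72 h (9 tags, 13.4 to 55.7). The GC interval, 890 bp long, ran from 193021470 to 193022359. All 4 LPS values overlap within their counting intervals, and none stands high in its list. For IRF4 the peak ranked 970 of 1573 at 48 h and 579 of 898 at 72 h. For IRF8 it ranked 195 of 234 and 577 of 1059. The caller's score of a peak can differ from the tags given here, as in the IRF8 48 h list, with a score of 11 and 10 tags. This score exceeded the caller's threshold by 2 tags at most, and in the IRF4 72 h and IRF8 48 h lists it met the threshold with no tag to spare. So the presence of this place in all 4 LPS lists rests on counts at or near the threshold of the caller.

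**Figure D3:**
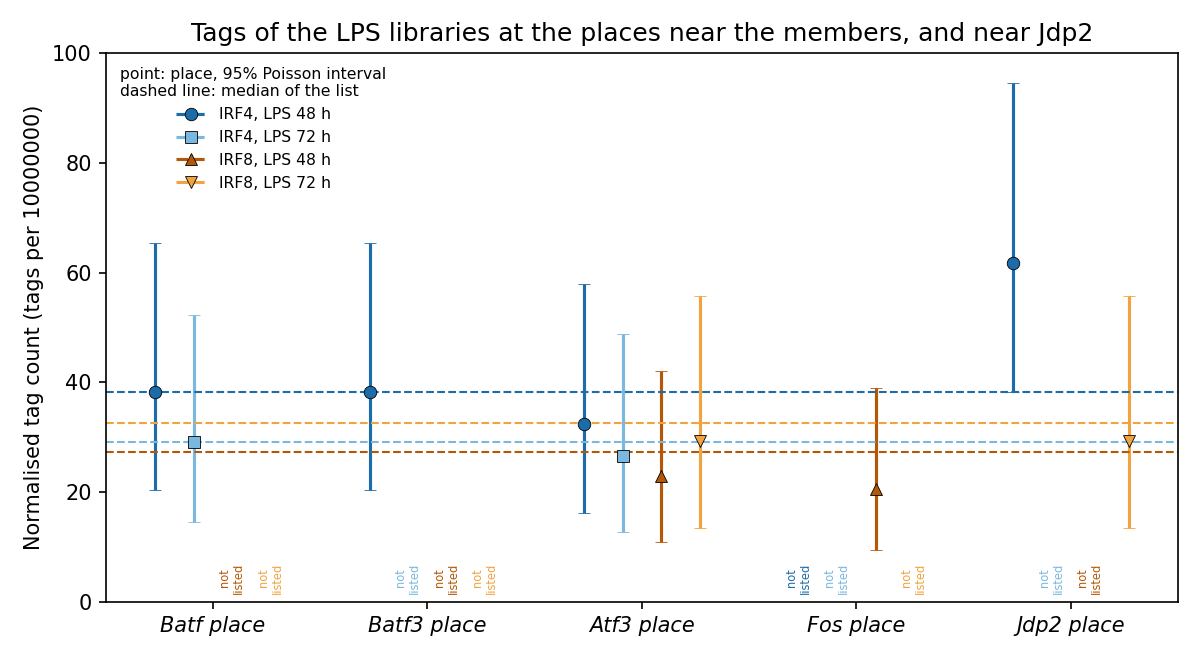
Normalised tag count (y axis, tags per 10000000) at the places near Batf, Batf3, Atf3 and Fos and, for comparison, near Jdp2 (x axis) in the 4 LPS libraries. Points are the single values, bars their 95% Poisson intervals, dashed lines the median of each list, and "not listed" marks a list without a peak there; the points near Batf, Batf3, Atf3 and Fos lie at or below the median of their list, and the highest point is that of Jdp2 at 61.8.

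At these shared places the tags of pairs of libraries were compared by an exact binomial test, two-sided, with p-values adjusted over all places shared by the pair, a test of 2 libraries and not of conditions. From 48 h to 72 h the IRF4 tags at Atf3 had a ratio of 0.820 (95% interval 0.312 to 2.13, exact binomial test, adjusted p = 0.939). At Batf the IRF4 ratio was 0.763 (0.310 to 1.85, exact binomial test, adjusted p = 0.927). Over all 536 places that the IRF4 lists share, 2.61% passed, all lower at 72 h, and the median log2 ratio was -0.39, beside log2 ratios of -0.29 at Atf3 and -0.39 at Batf. Both values lay between the quartiles of all shared places, -0.73 and -0.03. Only places that passed the caller in both libraries have a ratio, and at these places the tags lay near the threshold. This selection limits how far a ratio could depart, so the position among all shared places is description only. The same selection holds for the pairs of libraries below.

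The IRF8 tags at Atf3 had a ratio of 1.28 for 72 h over 48 h (0.462 to 3.52, exact binomial test, adjusted p = 0.814). Of the 138 places that the IRF8 lists share, 12.3% passed, all higher at 72 h, with a median log2 ratio of 0.59 against 0.36 at Atf3. With the median shared single-copy place as the expected ratio, 3 of 138 passed, and among single-copy places 7 of 95. IRF4 over IRF8 at Atf3 was 1.42 at 48 h (0.546 to 3.72, exact binomial test, adjusted p = 0.769) and 0.904 at 72 h (0.330 to 2.52, exact binomial test, adjusted p = 1). Of the places shared by IRF4 and IRF8, 18% of 122 passed at 48 h, with 9 of 89 among single-copy places, and 0.388% of 258 at 72 h. No place near the 10 genes passed in any pair. The 95% intervals of these ratios, not adjusted for the number of places, run from 0.310 to 3.72. With 9 to 13 tags, differences within each interval therefore remain possible. The smallest difference that could have passed was not computed. These comparisons share libraries and are not independent of each other.

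The Atf3 place holds 1 EICE, at 193021959 to 193021968 on the forward strand, with the letters GGAAGTGAAA. Its middle lay 28.5 bp from the centre of the IRF4 48 h peak, 76.5 bp from that of the IRF4 72 h peak, 4.5 bp and -1.5 bp from the IRF8 centres at 48 h and 72 h, and 49.5 bp from the middle of the GC interval. The IRF8 peaks were thus centred on the element within 5 bp, and the IRF4 peaks farther from it. Centres set by 9 to 11 tags are imprecise, and the difference was not tested. An EICE lay within 100 bp of the centre at 14.6% and 25.6% of the IRF4 peaks at 48 h and 72 h, and at 19.5% and 22.1% of the IRF8 peaks. In the GC list the share was 7.34%. Among the 17 peaks of the IRF8 48 h list that overlap an interval of every other list, 8 held an EICE, 47.1%, and the Atf3 place is one of them.

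**Figure D4:**
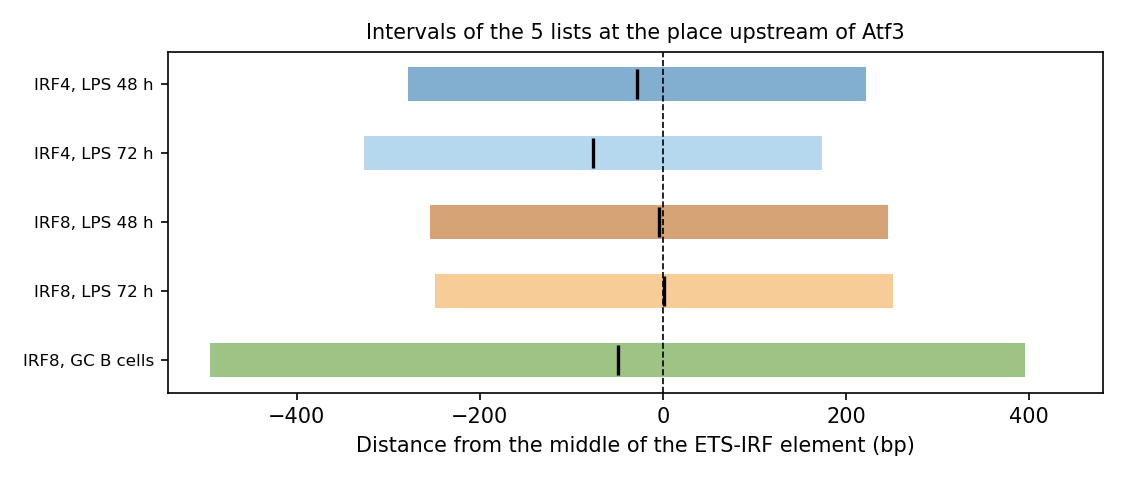
Extent of the interval of each list (y axis) at the place upstream of Atf3, as distance from the middle of the ETS-IRF element (x axis, bp). Bars span the deposited intervals and black ticks mark their centres, which lie within 5 bp of the element in both IRF8 LPS lists and up to 76.5 bp away in the others.

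By a rule of likeness over the 4 LPS lists, the genes closest to Atf3 were Fam71a, Tnpo3 and Cacna1s, out of 3478 genes compared. The measure was the Euclidean distance of log2 of the highest normalised tag count in the window plus 1, among genes also in or out of the GC list as Atf3 was. Fam71a, at a distance of 0.235, lies beside Atf3 on chromosome 1. Its window takes in the Atf3 peaks and, in the IRF4 48 h list, also the Batf3 peak of 38.3. Tnpo3 at 0.267 lies on chromosome 6 and had 38.3 and 26.6 normalised tags for IRF4 at 48 h and 72 h, and 25.1 and 29.4 for IRF8. Cacna1s at 0.303 had 38.3 and 26.6 for IRF4, and 25.1 and 32.6 for IRF8.

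The JUN genes, which encode partners of FOS and BATF proteins, had intervals in the GC list alone. At Jun (chromosome 4, 94715725 to 94718913, reverse strand) a GC interval of 747 bp ran from 94719203 to 94719949, with its centre 0.663 kb upstream of the start. Of its bases 60.9% were G or C, with 0.836 of the CpG dinucleotides that its composition predicts. At Junb (chromosome 8, 87500811 to 87502617, reverse strand) a GC interval of 1433 bp, from 87500973 to 87502405, covered most of this short gene, with its centre in the coding exon, 0.928 kb from the start. It had 64.5% G or C and a CpG ratio of 0.759. Neither interval held an element within 100 bp of its centre or over its whole length.

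A second GC interval near Junb, 1656 bp from 87498080 to 87499735, lay 1.90 kb past the gene end in intergenic sequence of 45.7% G or C. It held an ISRE at 87498884 to 87498893 on the reverse strand, at -18.5 bp from its middle and printed above. The nearest transcription start site was that of Prdx2, at 3.55 kb, so it cannot be assigned to Junb by position. Near Jund (chromosome 8, 73221638 to 73224515, forward strand) the GC interval lay 29.7 kb past the gene end, from 73253557 to 73254778. Its centre was in an exon of Pde4c, 0.156 kb from a start site of that gene, which encodes a phosphodiesterase. Its ISRE, at 73253980 to 73253989, lay at -182.5 bp from its middle, outside the 100 bp searched on each side. An ISRE is common in this list: it lay within 100 bp of the centre at 13.5% of GC intervals and in 37.3% of them over the whole length. By position, then, Jun and Junb had GC intervals centred within 1 kb of their own starts, and the interval counted for Jund lay near the start of another gene.

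FOS proteins need a JUN partner and are known as immediate early proteins of receptor signalling. Fos lies on chromosome 12, 86814840 to 86818223, on the forward strand. The IRF8 48 h list held a peak 16.4 kb past its end, at 86834333 to 86834833, with 20.6 normalised tags (9 tags, 9.40 to 39.0). It ranked 228 of 234, no other list had an interval there, and it held no element. The GC list held an interval of 1234 bp 20.5 kb upstream, from 86793711 to 86794944, with an EICE at 86794832 to 86794841, 509.5 bp from its middle. Over whole intervals 23.0% of the GC list held an EICE. Near Fosb (chromosome 7, 19888070 to 19895394, reverse strand) a GC interval of 1262 bp, from 19849923 to 19851184, lay 37.5 kb past the gene end in an intron of Vasp, which encodes a regulator of the actin skeleton. No element was found in it. Fosl2 (chromosome 5, 32438845 to 32460204, forward strand), which encodes FRA2, had no interval in a window with 1 other protein-coding gene. An interval below the threshold of a caller would not be listed, so this does not show that IRF4 or IRF8 was absent there.

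Mafk encodes a small MAF protein, which pairs with BACH and NFE2-type bZIP proteins. It lies on chromosome 5, 140267467 to 140278607, on the forward strand. A GC interval of 422 bp, from 140267392 to 140267813, lay over its start, with its centre in an untranslated exon 0.114 kb from the start site. It was the shortest of the 8 GC intervals near the 10 genes and the richest in G or C, at 71.1%, with a CpG ratio of 1.08 and no element.

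Within 1 kb of a transcription start site lay 4 of the 8 GC intervals, near those of Jun, Junb, Mafk and Pde4c, and 0 of the 8 LPS intervals. In the whole GC list 26.4% of intervals lay that near to a start site. In the LPS lists 9.15% to 14.7% did, so that 0 of 8 intervals at 4 distinct places cannot be told from those shares. The 482 such intervals had a median of 55.4% G or C and a CpG ratio of 0.628, against 45.1% and 0.214 for the other 1344. The intervals at Jun, Junb and Mafk were above both medians for start sites, and that near the Pde4c start was above the first, with 57.0% G or C, and below the other, with a CpG ratio of 0.462. Among the GC intervals far from a start site, those at Atf3, Fos and downstream of Junb had 45.7% to 46.8%, near the median of their kind, while that near Fosb had 55.5%, close to the median for start sites. No control library was analysed here, and the part of base composition in these intervals was not tested.

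Across all 16 intervals, none held an AP-1 element within 100 bp of the centre or over the whole interval. The composite elements with GAAA directly before the AP-1 letters (GAAATGACTCA or GAAATGAGTCA) and with TTTC and 4 bases before them (TTTCNNNNTGACTCA or TTTCNNNNTGAGTCA), which contain AP-1, and the cyclic AMP element TGACGTCA were also found in none. An AP-1 count of 0 of 11 places allows a share of up to 27.3%, by a limit of 3 counts. AP-1 lay within 100 bp of the centre at 28.7% and 18.5% of IRF4 peaks at 48 h and 72 h, at 11.1% and 8.02% of IRF8 peaks and at 5.81% of GC intervals. With 4 places in the LPS lists, a lower share near these genes could not be told from those of the lists. No match says only that these letters are not in the window.

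The promoters of the 10 genes were searched for the same letters in the RefSeq promoter table (GRCm38.p6, 250 bases before to 50 after each start). All 10 genes matched, with 1 promoter each. AP-1 was in none of them and in 5.20% of all 32851 promoters, and the cyclic AMP element in none and in 1.79%. The EICE was in none and in 2.72%. The only match was an ISRE in the Fosl2 promoter, an element found in 3.44% of all promoters. Of the GC intervals near the starts of Jun, Junb and Mafk, that of Mafk lies over the start, while those of Jun and Junb do not reach it.

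Of 19 other bZIP genes, 7 had an interval in any list: the IRF4 48 h list held 4, the IRF8 72 h list 2, the GC list 6 and the others none. For all genes the shares in those 3 lists were 11.5%, 8.81% and 15.6%. They were 7.61% and 1.99% in the IRF4 72 h and IRF8 48 h lists, and 71.9% of all genes had no interval in any list. Both IRF8 LPS counts are thus near those of all genes. The highest was that of Jdp2, which encodes a repressor of AP-1. The IRF4 48 h peak 6.25 kb upstream of it (chromosome 12, 86933862 to 86934362) carried 61.8 normalised tags (21 tags, 38.3 to 94.5) and ranked 191 of 1573. The IRF8 72 h peak there, 86933882 to 86934382, carried 29.4 (9 tags, 13.4 to 55.7). Printed above, this place held an AP-1 element 20 bp from the IRF4 centre and at the IRF8 centre, and an EICE on the reverse strand. It lies outside the windows of both Fos and Batf. Nfe2l1 had 47.1 normalised tags in the IRF4 48 h list at an AP-1 element in a Copz2 intron and, at another place, 32.6 in the IRF8 72 h list. Maff and Cebpb each had 29.4 in the IRF4 48 h list, with 10 tags, at the threshold of 10. The Maff peak lay 44.7 kb past the gene end and near a Tmem184b start, and the Cebpb peak lay in a Tmem189 intron.

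Of 17 genes of the mitogen-activated protein (MAP) kinase route, which raises AP-1 activity, 10 had an interval in any list: 6 and 3 in the IRF4 lists at 48 h and 72 h, 1 and 2 in the IRF8 lists at those times and 4 in the GC list. The shares of all genes given above were 11.5% and 7.61%, 1.99% and 8.81%, and 15.6%, and 71.9% had no interval in any list. Dusp10, which encodes a phosphatase of JNK and p38 kinases, had 38.3 and 50.5 in the IRF4 lists at 48 h and 72 h and 32.6 at the same place in the IRF8 72 h list, which also held a peak of 35.9 at another place. Dusp6, which encodes another phosphatase of this route, had 47.1 for IRF4 at 48 h and 22.9 for IRF8 at 48 h. Map3k1 had an intronic EICE peak with 26.6 for IRF4 and 45.7 for IRF8 at 72 h, a place also in the GC list, and Mapk8, which encodes JNK1, had 41.2 in the IRF4 48 h list. Both further sets of genes thus held LPS peaks above any near the 10 genes, where the highest was 38.3, the median of the IRF4 48 h list. The genes named here were picked for their high counts, so a higher value among them is no result about the 10 genes.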

How the data were processed

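The 4 LPS lists were called by the authors with findPeaks of HOMER, per the file headers: peaks of 500 bp, a limit of 1 tag per position, an FDR of 0.001, and at least a fold of 4 and a p-value of at most 1e-04 against the surrounding 10000 bp. In these deposited lists the signal is the normalised tag count per 10000000 tags, the score is the tags in the peak, the folds are ratios, the p-value is the caller's own and a fraction gives the share of tags placed around the centre. The IRF8 72 h header names a second replicate as its source; which library that is, is not given in the sources used here. The GC list gives positions only; MACS is named for it in the series' design text. The build was mm9, and BWA and Bowtie2 are named without a version or role, per the submitters' processing notes.

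Dividing out the scaling gave whole tags within 0.05 for 100% of the LPS peaks. These gave the exact Poisson intervals at 95% and the exact binomial tests (scipy 1.17.1), with Benjamini-Hochberg adjustment and a threshold of 0.05. The test was checked on simulated tags with known changes and no caller threshold. The effect of selecting places that passed the caller in both libraries was therefore not checked. Intervals cover counting error only. Places in different lists were shared when they overlapped by at least 1 bp. Genes came from GENCODE M1; 40 intervals outside placed sequence were not annotated. Elements were searched within 100 bp of each centre, and a place was single-copy when the median 24-base word of that stretch occurred 1 time in the genome.

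The 10 genes and both further lists were chosen with earlier results of these data known, so they got no set test. All 10 genes are named; of each further list at most the 5 with the highest tag counts are named, and the values of 1 of these are not reported here; the genes most like the one with the most lists are named by rank. Alternatives changed the window, gene assignment, tag minimum, copy number, overlap, expected ratio and element window.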

Additional observations from a re-analysis of the deposited data

How the results depend on the processing

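With 1 library a group, no replicate could be left out, and no paired analysis was possible because each group held 1 library. With a window of 20 kb, 4 of the 10 genes kept a GC interval (Atf3, Jun, Junb and Mafk), with 5 intervals; counting an interval only for the nearest start site also left 5. With a window of 100 kb the IRF8 72 h list had 2 peaks near 3 genes (Batf, Batf3 and Atf3). With a minimum of 30 normalised tags the counts of genes and of peaks were 0 in the IRF4 72 h, IRF8 48 h and IRF8 72 h lists. With each LPS list at the length of the shortest, an alternative added after the data were seen, they were 0 in the IRF4 48 h, IRF4 72 h and IRF8 72 h lists. Fewer peaks enter in both cases. The share of all genes was not computed under these alternatives. Taking the median shared single-copy place as the expected ratio turned 4 log2 ratios: the IRF4 ratio of 72 h over 48 h to 0.13 at Atf3 and 0.022 at Batf, the IRF8 ratio at Atf3 to -0.29 and the ratio of IRF4 over IRF8 at 48 h there to -0.10 (exact binomial test, adjusted p = 1 for each), so no direction is given for them. It left 3 called places for IRF8 over time and 0 for IRF4 over IRF8 at 72 h. Single-copy places left 7 called for IRF8 over time and 9 for IRF4 over IRF8 at 48 h. An EICE lay within 100 bp of the centre in 5 of 16 intervals and within 50 bp in 3. All of these are the 1 EICE of the Atf3 place, counted once per list. The ISRE count was 1 within 100 bp and 2 over whole intervals, at different places. The depth limits all LPS values near the 10 genes, which rest on 9 to 13 tags.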
